A study of Mus musculus with 23 samples.

Results

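The chemokine ligands and chemokine receptors were followed through bones of WT and Sarm1-KO mice with and without type 1 diabetes (T1D). A gene was included when its symbol was Ccl, Cxcl, Ccr, or Cxcr followed by a number, and Cx3cl1, Cx3cr1, Xcl1, and Xcr1 were added. The genes reported here were 52 (35 ligands and 17 receptors) of the 17644 entries in the TPM table, and all 52 were found in the count table by gene ID. Of these, 40 genes (25 ligands and 15 receptors) had at least 10 counts in at least 5 libraries and were tested among 14364 genes. The 12 genes that did not reach this level were the ligands Ccl1, Ccl17, Ccl19, Ccl21b, Ccl27b, Ccl28, Cxcl1, Cxcl2, Cxcl3, and Cxcl17 and the receptors Ccr4 and Ccr8, with between 0 and 24 counts in any mouse.

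RNA had been taken from the femur and tibia of 23 female C57BL6/N mice at 11 weeks of age after the marrow had been spun out, and each library came from 1 mouse. T1D had been induced at 8 weeks by fasting and intraperitoneal streptozotocin at 100 mg/kg, which destroys pancreatic beta cells, and Control mice had received saline. Injections were repeated, and the T1D group was limited to mice whose fasting glucose stayed high. There were 5 WT Control, 6 WT T1D, 6 KO Control, and 6 KO T1D mice, where KO stands for mice labelled as global Sarm1 knockouts, lacking the NAD-cleaving enzyme of axon degeneration in every tissue. Littermates of the KO mice and purchased mice of the same background both served as WT animals in the study, and the labels do not tell them apart. The design asks what 3 weeks of T1D do to bone RNA in each genotype, what the genotypes differ in, and whether the change with T1D differs between genotypes.

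Chemokines are small secreted proteins that bind G protein-coupled receptors on leukocytes and direct their migration along a gradient. They are grouped by the spacing of their first cysteines into CC, CXC, CX3C, and XC families, and the receptors are named for the family they bind. In bone, CXCL12 from stromal and osteoblast-lineage cells holds CXCR4-bearing hematopoietic and B cells in the marrow, CXCR2 ligands draw neutrophils out, and CCL2 and its relatives mobilize CCR2-bearing monocytes. CXCL9 and CXCL10 are interferon-induced ligands of the T and NK cell receptor CXCR3.

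Total counts ranged from 16938101 to 20135592 per mouse. Of the 6 WT T1D mice, A3905 and A3906 stood apart on the first principal component of all tested genes (29.4% of the variance), at -68.0 and -70.3, whereas the other 21 mice were at -6.23 or above. Their summed osteoblast and osteocyte markers were 4370.4 and 3487 CPM (counts scaled to library size by TMM), whereas WT Control mice had 38408 to 74717 CPM. Results for T1D in WT, for KO against WT in T1D, for the interaction, and for both averages rest in part on these mice. The fold changes named for T1D in WT and for KO against WT in T1D are also given without both. This leaves A1764, A1787, A1758, and A3909 in WT T1D, all but A3909 with IDs in the A17 series. In WT Control only A1757 is of that series, so in those fits T1D and ID series cannot be fully told apart. In WT T1D, the summed level of 9 erythroid markers was 126519 to 238002 CPM (median 171435) against 97845 to 143476 CPM (median 105848) in WT Control, with 5 of 9 called higher, and the part of erythroid RNA in the results was not tested. Neutrophil, monocyte and macrophage, B cell, T and NK cell, dendritic cell, eosinophil, and endothelial markers were present in every library. Sarm1, on chromosome 11, had 5 to 32 counts per mouse, at 0.845 to 1.76 CPM in WT Control, 0.340 to 1.21 CPM in WT T1D, 0.268 to 1.57 CPM in KO Control, and 0.811 to 1.455 CPM in KO T1D. The RNA count of the targeted gene therefore did not separate the genotypes, and genotypes are those of the library labels. In bulk bone, fewer cells of a type and less RNA per cell cannot be told apart.

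Among the ligands, Cxcl12 was by far the most abundant. Comparing genes per length, as TPM, its mean over the 23 mice was 744 TPM, which was 63.0% of the summed TPM of the 25 tested ligands. By group, in the order WT Control, WT T1D, KO Control, and KO T1D, its level was 785 ± 61.1, 721 ± 62.3, 775 ± 138, and 701 ± 26.0 TPM (mean ± SD). The CC ligand Ccl6, made by myeloid cells, followed at 176 ± 37.9, 205 ± 50.1, 201 ± 40.7, and 226 ± 39.9 TPM in the same order. Together with Cxcl14, Ccl5, and Ccl9, these 5 ligands made up 93.3% of ligand TPM. Cxcl14, a chemokine of epithelia and stroma, was at 69.6 ± 15.6, 53.5 ± 7.41, 68.2 ± 13.2, and 66.2 ± 15.2 TPM. Ccl5, a T and NK cell product that attracts leukocytes, was at 55.6 ± 8.13, 40.5 ± 5.56, 59.8 ± 14.2, and 59.0 ± 22.9 TPM. The myeloid ligand Ccl9 was at 40.2 ± 5.61, 36.2 ± 5.79, 36.8 ± 6.24, and 35.6 ± 9.33 TPM. Only 6 ligands averaged above 10 TPM, the sixth being the CXCR3 ligand Cxcl9 at 14.0 TPM, and Ccl7 and Ccl21c averaged below 1 TPM. TPM are used to compare genes, not groups, since the median difference of all genes with T1D in WT was -0.24 on the log2(TPM + 1) scale and -0.01 on CPM. Between WT Control and WT T1D, Cxcl12 and Cxcr4 have lower mean TPM but positive log2 differences on CPM, 0.19 and 0.21. Ccl9, Ccl21a, Ccl21c, Cxcl5, Cxcr1, and Cxcr2 also have a lower mean TPM but a higher mean CPM in WT T1D.

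The receptor levels were headed by Cxcr4, the CXCL12 receptor, with 48.8% of the summed TPM of the 15 tested receptors. Its group levels were 151 ± 9.41, 144 ± 23.9, 165 ± 15.5, and 178 ± 31.5 TPM, again in the order WT Control, WT T1D, KO Control, and KO T1D. Cxcr2, the neutrophil receptor for ELR-bearing CXC ligands, was at 57.8 ± 14.3, 56.1 ± 10.05, 60.2 ± 16.6, and 64.1 ± 18.9 TPM. Of its ligands, Cxcl1, Cxcl2, and Cxcl3 were under the count filter and Cxcl5 was at 1.78 ± 0.612, 1.72 ± 0.550, 1.79 ± 0.496, and 1.99 ± 0.636 TPM. The monocyte receptor Ccr2 was at 33.3 ± 3.68, 22.1 ± 4.71, 32.5 ± 9.41, and 30.9 ± 7.37 TPM, and Ccr1, carried by monocytes and neutrophils, was at 26.6 ± 5.16, 27.0 ± 9.08, 25.0 ± 4.47, and 25.9 ± 4.92 TPM. Cx3cr1, the fractalkine receptor of patrolling monocytes and macrophages, was the fifth and last receptor above 10 TPM on average, at 18.8 ± 2.75, 10.6 ± 4.90, 18.2 ± 3.75, and 17.2 ± 2.49 TPM. Cxcr1, Ccr10, Ccr6, and Xcr1 averaged below 1 TPM. The plot of TPM by group shows the whole order.

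**Figure D1:**
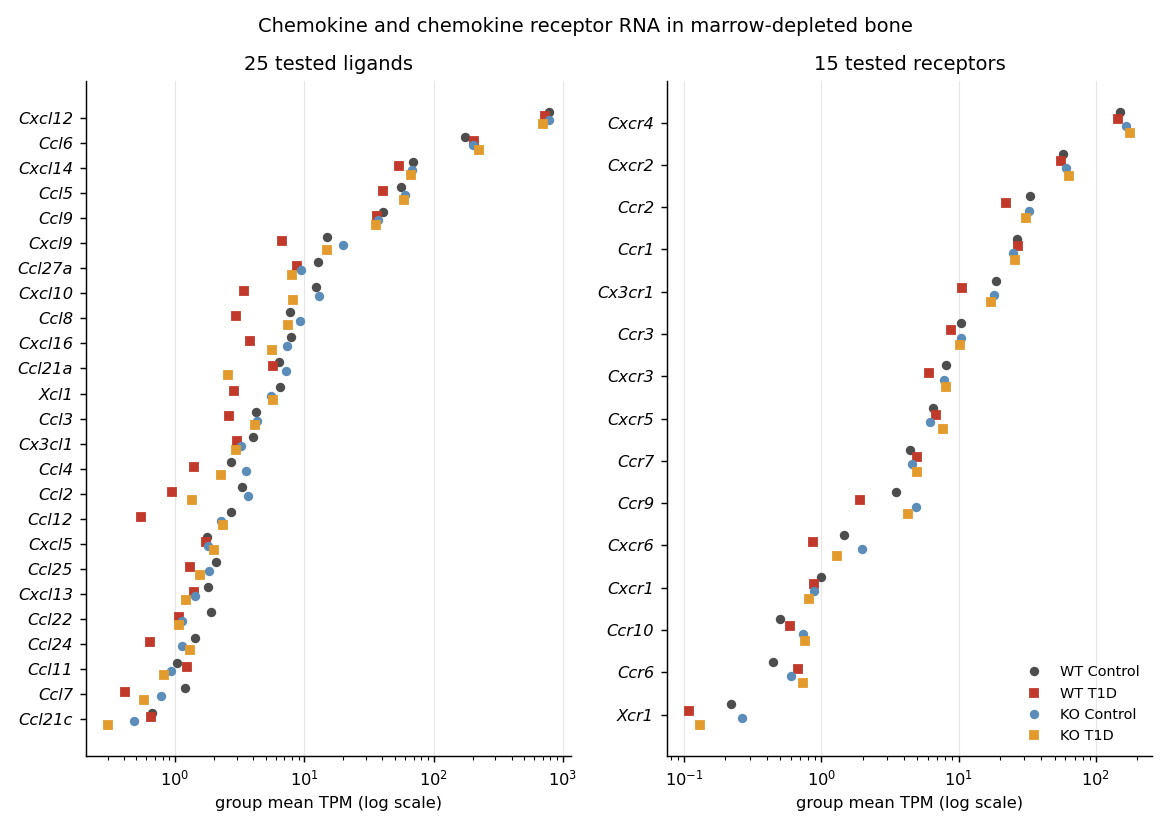
Mean TPM of each group (horizontal axis, log scale) for the 25 tested ligands (left) and 15 tested receptors (right), with 1 symbol per group. Cxcl12 at 744 TPM and Cxcr4 at 160.0 TPM head their classes. The WT T1D squares lie to the left of the other groups for many members, among them Cxcl10, Ccl2, and Cxcr4. The median of all genes shifted by -0.24 with T1D in WT on the log2(TPM + 1) scale, so the plot compares genes, not groups.

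With T1D in WT mice, 2 members fell: Ccl2, the main CCR2 ligand, and Cxcl10, an interferon-induced CXCR3 ligand. These 2 of 40 were 5.0% of the tested members, and the same test called 2.33% of all genes (334 of 14364), 0.828% with a decrease. No member rose at this threshold. At an unadjusted p under 0.05 there were 11 members (27.5%), of which 10 were lower and 1, Ccl6, was higher, against 22.2% of all genes, 11.2% with a decrease. The median log2 fold change over the 40 members was -0.17, with 25 of 40 below 0, and it was -0.01 over all genes. A negative fold change was found for 18 of 25 ligands and 7 of 15 receptors. Without A3905 and A3906, 0 of 40 members passed the adjusted threshold, as did 0 of all genes tested, while 8 of 40 had an unadjusted p under 0.05, 6 of them lower, against 11.0% of all genes. DESeq2 on all 23 libraries called 5 members, adding Ccl12, Ccl8, and Cxcl16, and 6.98% of all genes.

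Ccl2 encodes the monocyte chemoattractant MCP-1. It was at 1.10, 1.15, 1.36, 1.80, and 2.76 CPM in the 5 WT Control mice and at 0.226 to 0.803 CPM (median 0.593) in WT T1D. Every WT T1D mouse was below every WT Control mouse. The share of all genes whose groups separate in this way is not given, so a lack of overlap is descriptive only, here and below. The log2 fold change was -1.55 ± 0.41 (SE), a level 0.342 times that of WT Control (edgeR quasi-likelihood test, adjusted p = 0.0494). KO mice had 1.32 to 2.71 CPM (median 1.83) in KO Control and 0.324 to 1.69 CPM (median 0.488) in KO T1D, and 5 of 6 KO T1D mice lay below all KO Control mice. The log2 fold change in KO was -1.39 ± 0.39 (edgeR, unadjusted p = 0.00141, adjusted p = 1.0), and its 95% interval of -2.19 to -0.60 excluded 0. Averaged over genotypes, Ccl2 fell by 1.47 ± 0.28 on the log2 scale (edgeR, adjusted p = 0.0415). Removing A3905 and A3906 left -1.30 in WT (edgeR, adjusted p = 0.31) and -1.35 on average (edgeR, adjusted p = 0.0952). With counts of 4 to 50 per mouse, Ccl2 was thinly covered. In WT the call was kept in 7 of 23 omissions of a mouse, those of A1757, A1758, A1764, A3674, A3682, A3766, and A3909, and it was lost in the other 16 with adjusted p from 0.0525 to 0.139. The call on average was kept in 6 of 23, those of A1757, A1758, A1764, A3679, A3682, and A3909, and lost in 17 with adjusted p from 0.0508 to 0.107.

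Around Ccl2 on chromosome 11 lie the related CC ligands Ccl7, Ccl11, Ccl12, and Ccl8, within 0.1 megabases. Ccl8, another monocyte chemoattractant, was at 1.75, 3.13, 1.70, 2.20, and 2.81 CPM in WT Control and at 0.611 to 1.58 CPM (median 1.11) in WT T1D, so that these groups did not overlap. The difference was -1.11 ± 0.36 (edgeR, adjusted p = 0.0781) and -1.07 without A3905 and A3906. In KO Control it was at 1.77 to 3.49 CPM (median 2.87) and in KO T1D at 1.03 to 5.51 CPM (median 2.16), which overlapped. Ccl12, the mouse ligand MCP-5, had the most negative fold change of all members in WT, -2.06 ± 0.60 (edgeR, adjusted p = 0.0585; -1.98 without A3905 and A3906, adjusted p = 0.313), from 0.219 to 1.24 CPM in WT Control to 0 to 0.556 CPM in WT T1D. Its values are singled out here after they were seen, since its counts of 0 to 27 were among the lowest. Its values overlapped in WT and also in KO, at 0.376 to 0.992 CPM in KO Control and 0.332 to 1.46 CPM in KO T1D (KO log2 fold change 0.13, 95% interval -0.92 to 1.18). Ccl7 was at 1.20 ± 0.810, 0.408 ± 0.514, 0.773 ± 0.211, and 0.570 ± 0.539 TPM in WT Control, WT T1D, KO Control, and KO T1D. The eotaxin Ccl11 was at 1.03 ± 0.462, 1.24 ± 0.882, 0.930 ± 0.543, and 0.815 ± 1.04 TPM. Mean CPM in the same order were 0.585, 0.247, 0.392, and 0.302 for Ccl7 and 0.697, 1.04, 0.650, and 0.606 for Ccl11. Neither passed an unadjusted p of 0.05 in any comparison. The receptor of the monocyte ligands, Ccr2, was at 77.1, 83.1, 85.3, 73.6, and 82.0 CPM in WT Control and 45.2 to 77.3 CPM (median 69.5) in WT T1D, with a difference of -0.30 ± 0.16 (edgeR, adjusted p = 0.268) and overlapping groups. Leaving out A3905 and A3906 gave -0.36 (edgeR, unadjusted p = 0.0493, adjusted p = 0.454). Both KO groups had a median Ccr2 of 75.2 CPM.

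**Figure D2:**
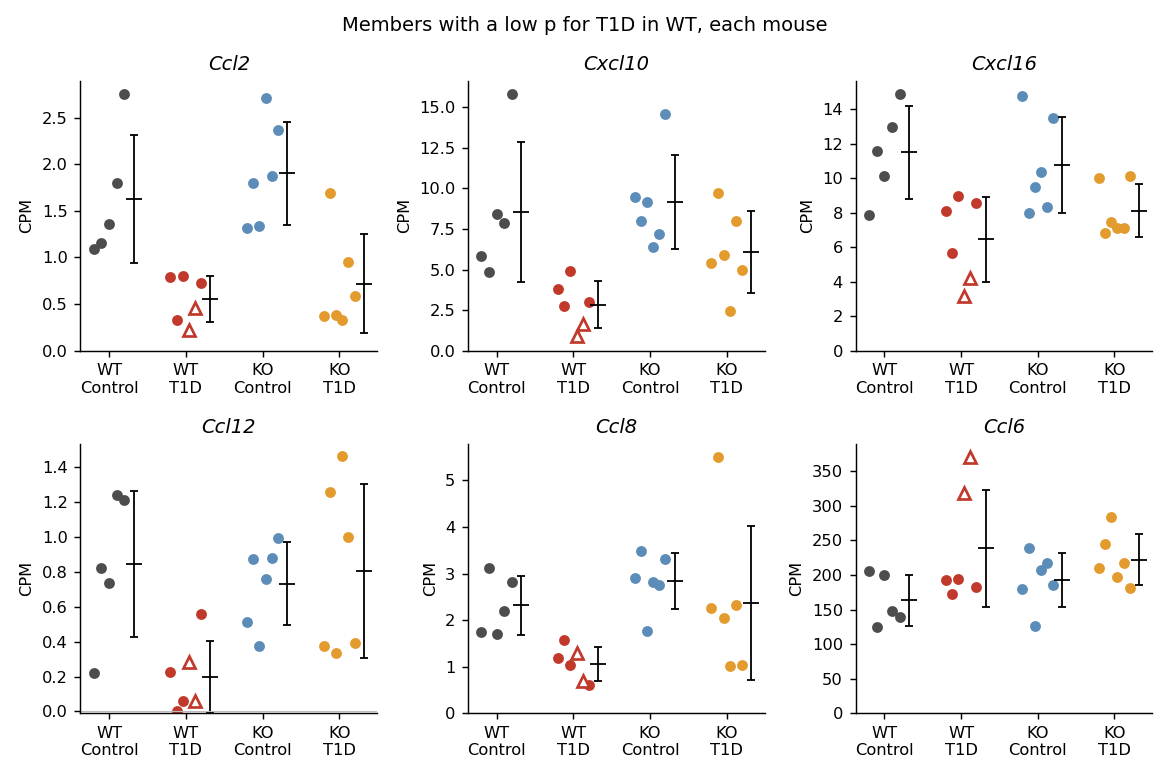
CPM (vertical axis) in each mouse for 6 members with a low p for T1D in WT, by group (horizontal axis). Points are mice, open triangles are WT T1D mice A3905 and A3906, and black bars are mean ± SD. For Ccl2 and Ccl8 every WT T1D mouse lies below every WT Control mouse.

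Cxcl10, or IP-10, was the member with the lowest p for T1D in WT. In WT Control it was at 5.81, 4.83, 8.42, 7.89, and 15.8 CPM, and in WT T1D at 0.906 to 4.93 CPM (median 2.89). All but 1 WT T1D mouse lay below every WT Control mouse. The log2 fold change was -1.59 ± 0.37, a level 0.332 times that of WT Control (edgeR, adjusted p = 0.0418). In KO mice the medians were 8.59 CPM in KO Control (6.41 to 14.5) and 5.65 CPM in KO T1D (2.43 to 9.71), with a log2 fold change of -0.59 ± 0.34 (edgeR, unadjusted p = 0.0944). The lowest WT T1D values, 0.906 and 1.62 CPM, came from A3905 and A3906, and leaving both out gave -1.25 (edgeR, adjusted p = 0.288). Leaving out 1 mouse at a time, the call was kept in 11 of 23 omissions, those of A1757, A1758, A1764, A3672, A3674, A3676, A3680, A3682, A3683, A3766, and A3909, and it was lost in 12 with adjusted p from 0.0508 to 0.116. Cxcl10 overlaps the gene Art3 in the annotation, and how reads on both were divided is not given in the sources used here.

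Cxcl9, the neighboring interferon-induced ligand, was at 18.1, 22.5, 24.0, 34.3, and 44.6 CPM in WT Control and 4.34 to 23.8 CPM (median 17.05) in WT T1D. Here the groups overlapped, and the 2 lowest values, 5.43 and 4.34 CPM, were again those of A3905 and A3906. The difference of -0.92 ± 0.37 did not pass (edgeR, adjusted p = 0.14) and was -0.51 without both mice. Their receptor Cxcr3, a marker of activated T and NK cells, was at 8.14 ± 1.66, 6.05 ± 1.11, 7.84 ± 0.960, and 8.03 ± 1.25 TPM in the 4 groups, with a difference of -0.15 ± 0.15 with T1D in WT and -0.16 without both mice.

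RefSeq promoter sequences for GRCm38.p6 were matched to 28 of the 40 tested members, and Ccl2 had no entry. The 250 bases before the start of Cxcl10, and those of the 3 ligands described beside it and beside Ccl2, are printed because these ligands had the differences described above, of which that of Cxcl10 passed the test. Capitals mark matches to an interferon-stimulated response element, a STAT site (TTCNNNGAA), an NF-kB site, or a GC box (GGGCGG) on either strand, and each line reads 5′ to 3′ on the strand of the gene.
Cxcl10, chr5:92348890-92349139, minus strand: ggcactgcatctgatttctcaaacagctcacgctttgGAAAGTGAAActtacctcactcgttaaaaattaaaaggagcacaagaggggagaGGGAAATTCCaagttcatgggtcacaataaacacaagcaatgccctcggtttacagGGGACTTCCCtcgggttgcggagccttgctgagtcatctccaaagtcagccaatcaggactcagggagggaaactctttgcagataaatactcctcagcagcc
Cxcl9, chr5:92328080-92328329, minus strand: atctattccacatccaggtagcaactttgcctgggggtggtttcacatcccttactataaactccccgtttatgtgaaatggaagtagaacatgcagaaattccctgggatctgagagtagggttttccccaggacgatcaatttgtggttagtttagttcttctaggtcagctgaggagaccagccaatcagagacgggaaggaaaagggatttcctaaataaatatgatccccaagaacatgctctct
Ccl12, chr11:82101595-82101844, plus strand: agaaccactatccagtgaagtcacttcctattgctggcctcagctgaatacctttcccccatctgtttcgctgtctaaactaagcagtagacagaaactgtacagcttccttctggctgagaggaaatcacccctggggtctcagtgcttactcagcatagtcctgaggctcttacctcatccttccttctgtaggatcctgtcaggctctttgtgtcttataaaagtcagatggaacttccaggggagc
Ccl8, chr11:82114935-82115184, plus strand: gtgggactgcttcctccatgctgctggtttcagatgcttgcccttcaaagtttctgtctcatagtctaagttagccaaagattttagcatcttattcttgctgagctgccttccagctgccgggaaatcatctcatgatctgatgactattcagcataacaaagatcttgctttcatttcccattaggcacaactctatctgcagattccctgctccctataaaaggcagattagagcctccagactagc
The Cxcl10 window held an interferon-stimulated response element on the other strand from 213 to 204 bases before the start, and NF-kB sites from 159 to 150 and from 103 to 94 bases before it. The first of these motifs was found in 2.98% of 32851 promoters and in 6.25% of the 32 promoters of tested members, those of Cxcl10 and Cxcl14. NF-kB matches occurred in 3.90% of all promoters and in 12.5% of member promoters, at Ccl9, Ccr3, Ccr6, and Cxcl10. The STAT site was found in 7.02% of all promoters and in 6.25% of member promoters (Ccr6 and Cxcl14), and the GC box in 32.7% and 15.6%. These letters were not in the windows printed for Cxcl9, Ccl12, and Ccl8, and a match describes a sequence only.

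Ccl3 and Ccl4, the macrophage inflammatory proteins, were at 4.22 ± 1.12, 2.61 ± 0.501, 4.27 ± 1.79, and 4.13 ± 0.471 TPM and at 2.69 ± 1.20, 1.41 ± 0.558, 3.52 ± 1.72, and 2.27 ± 0.576 TPM, in the order WT Control, WT T1D, KO Control, and KO T1D. Their WT differences of -0.39 ± 0.24 and -0.52 ± 0.36 did not pass, and they were -0.50 and -0.61 without A3905 and A3906. The annotations of Ccl3 and Ccl4 overlap, so reads could have been divided between them. Ccl5 was at 15.7, 19.3, 14.4, 18.0, and 19.7 CPM in WT Control and 12.1 to 18.8 CPM (median 16.1) in WT T1D, with overlapping values. KO Control and KO T1D had 15.5 to 27.0 CPM (median 17.9) and 12.5 to 32.9 CPM (median 18.3).

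Cxcl16, a transmembrane ligand of dendritic cells and macrophages, lay just outside the threshold. Its WT Control values were 7.89, 11.6, 10.1, 13.0, and 14.9 CPM, and WT T1D mice had 3.17 to 8.95 CPM (median 6.88), with 3 of 6 below all WT Control mice. The difference of -0.83 ± 0.23 had an adjusted p of 0.0524 (edgeR), and without A3905 and A3906 it was -0.56. In KO the medians were 9.93 CPM in KO Control (8.00 to 14.8) and 7.29 CPM in KO T1D (6.82 to 10.1). Cxcl16 overlaps Zmynd15. Its receptor Cxcr6, on T and NKT cells, had 1.81, 1.59, 1.64, 1.58, and 2.48 CPM in WT Control, 0.889 to 1.72 CPM (median 1.35) in WT T1D, 1.21 to 3.32 CPM (median 2.57) in KO Control, and 0.862 to 2.51 CPM (median 1.83) in KO T1D. The Cxcr6 differences with T1D were -0.46 ± 0.28 in WT and -0.54 ± 0.26 in KO (edgeR, unadjusted p = 0.119 and 0.0499), and the WT value was -0.45 without A3905 and A3906. The fractalkine receptor Cx3cr1 was at 46.6, 44.8, 34.8, 41.3, and 51.9 CPM in WT Control and 14.9 to 49.3 CPM (median 30.8) in WT T1D. Its difference of -0.56 ± 0.21 (edgeR, adjusted p = 0.118) was -0.26 without A3905 and A3906, the 2 lowest mice at 16.98 and 14.92 CPM. KO mice had medians of 43.6 CPM (KO Control, 34.9 to 52.0) and 41.7 CPM (KO T1D, 34.0 to 49.6). Its ligand Cx3cl1 was at 4.03 ± 0.765, 3.02 ± 1.52, 3.23 ± 0.978, and 2.94 ± 0.406 TPM, with mean CPM of 8.42, 7.45, 6.92, and 6.53.

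Ccl6 was the member with a positive difference at an unadjusted p under 0.05. WT Control mice had 205, 124, 199.5, 147, and 139.9 CPM and WT T1D mice 173 to 371 CPM (median 194). Only A3905 and A3906, at 318 and 371 CPM, were above all WT Control mice. The difference of 0.55 ± 0.20 (edgeR, adjusted p = 0.11) was 0.18 without them. KO Control and KO T1D had medians of 196 CPM (127 to 239) and 214 CPM (181 to 283). Its receptor Ccr1 had a similar layout, with 46.6, 54.7, 50.2, 61.0, and 36.9 CPM in WT Control and 41.8 to 104 CPM (median 49.1) in WT T1D, and A3905 and A3906 were highest at 95.7 and 104 CPM. Ccr1 was at 40.0 to 61.1 CPM (median 46.6) in KO Control and 41.9 to 65.4 CPM (median 48.1) in KO T1D, and its WT difference was 0.36 ± 0.21 (edgeR, adjusted p = 0.323), which turned to -0.12 without A3905 and A3906 (edgeR, adjusted p = 0.809). Cxcr2 was also highest in these mice, 200.2 and 166 CPM, within 104 to 200.2 CPM (median 114) in WT T1D against 131, 133, 102, 108, and 74.9 CPM in WT Control. KO Control mice had 77.1 to 147 CPM (median 119.7) and KO T1D mice 94.9 to 182 CPM (median 119.8) of Cxcr2. The summed neutrophil markers of A3905 and A3906 were 44719 and 40813 CPM, against 24331 to 32609 CPM in WT Control, and the part of neutrophil RNA in these values was not tested.

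The most abundant members did not pass the test with T1D. Cxcl12 was at 1349.9, 1470.5, 1296, 1438, and 1319 CPM in WT Control and 1368 to 1863 CPM (median 1469.8) in WT T1D, and the highest values, 1827 and 1863 CPM, were those of A3905 and A3906. With T1D the log2 difference was 0.19 (95% interval -0.04 to 0.41) in WT and -0.09 (-0.30 to 0.12) in KO, and the WT value was 0.05 without A3905 and A3906. Cxcr4 was at 203, 175, 155, 196, and 169 CPM in WT Control, 167 to 235 CPM (median 213) in WT T1D, 167 to 228 CPM (median 209) in KO Control, and 155 to 275 CPM (median 232) in KO T1D. All groups overlapped, and its differences with T1D were 0.21 ± 0.12 in WT (0.19 without A3905 and A3906) and 0.15 ± 0.11 in KO. Averaged over genotypes the Cxcr4 difference was 0.18 ± 0.08 (edgeR, unadjusted p = 0.0365, adjusted p = 0.276). Cxcl14 was at 91.0, 59.0, 93.0, 67.6, and 101 CPM in WT Control and 60.1 to 87.5 CPM (median 78.6) in WT T1D. Its medians in KO Control and KO T1D were 80.1 CPM (64.8 to 104) and 79.7 CPM (64.3 to 113).

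The remaining tested members did not pass the adjusted threshold with T1D in WT. Ccl24, a CCR3 ligand that attracts eosinophils, was at 1.44 ± 0.626, 0.638 ± 0.213, 1.12 ± 0.352, and 1.29 ± 0.605 TPM (WT difference -0.80 ± 0.36, edgeR, adjusted p = 0.187), while its receptor Ccr3 was at 10.5 ± 1.13, 8.73 ± 2.45, 10.4 ± 2.17, and 10.2 ± 1.69 TPM (-0.03 ± 0.16). Xcl1, made by NK and CD8 T cells, was at 6.42 ± 1.15, 2.85 ± 1.79, 5.53 ± 3.13, and 5.70 ± 2.45 TPM (-0.93 ± 0.45, edgeR, adjusted p = 0.22). Its receptor Xcr1, of cross-presenting dendritic cells, was at 0.220 ± 0.0548, 0.108 ± 0.0956, 0.265 ± 0.169, and 0.132 ± 0.0714 TPM, with differences of -0.85 ± 0.52 in WT and -0.93 ± 0.48 in KO. Leaving A3905 and A3906 out, the WT differences were -0.64 for Ccl24, 0.135 for Ccr3, -0.60 for Xcl1, and -0.53 for Xcr1, so that of Ccr3 changed sign. Summed dendritic cell markers were 109 to 133 CPM in WT Control and 59.8 to 125 CPM in WT T1D, none of the 7 called, and their part was not tested. The lowest sums, 63.7 and 59.8 CPM, were those of A3905 and A3906, and the other WT T1D mice had 95.7 to 125 CPM. Ccl22, a CCR4 ligand, was at 1.88 ± 0.548, 1.07 ± 0.510, 1.14 ± 0.558, and 1.08 ± 0.497 TPM. Ccl25, which binds CCR9, was at 2.08 ± 0.598, 1.30 ± 0.177, 1.81 ± 0.720, and 1.55 ± 0.345 TPM. On CPM, the scale for comparing groups, the means of Ccl22 were 2.21, 1.51, 1.35, and 1.36 in the same order. Those of Ccl25 were 1.45, 1.10, 1.24, and 1.12 CPM.

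The lymphoid homing genes gave no call with T1D in WT. Cxcl13, the B cell follicle ligand, was at 1.81 ± 0.670, 1.40 ± 0.313, 1.44 ± 1.46, and 1.22 ± 0.399 TPM, and its receptor Cxcr5 was at 6.48 ± 2.19, 6.83 ± 3.13, 6.21 ± 1.33, and 7.70 ± 1.07 TPM. Mean CPM of Cxcl13 were 1.32, 1.26, 1.07, and 0.959. Ccr7, which guides T cells and dendritic cells to lymph nodes, was at 4.43 ± 1.88, 4.93 ± 2.34, 4.54 ± 0.943, and 4.94 ± 0.627 TPM. The WT differences were 0.40 ± 0.28 for Ccr7 and 0.33 ± 0.27 for Cxcr5. With A3905 and A3906 left out they were 0.70 and 0.57, the 2 positive differences with an unadjusted p under 0.05 in that fit (edgeR, unadjusted p = 0.0109 and 0.0408, adjusted p = 0.334 and 0.433). Most WT T1D mice in that fit were of the A17 series. The only such WT Control mouse, A1757, had 8.82 CPM of Ccr7, and the other WT Control mice had 3.18 to 7.97 CPM. A1758, A1764, and A1787 had 8.20, 10.7, and 11.2 CPM of Ccr7, and A3909 had 7.23 CPM. The part of ID series in these differences was not tested. The Ccr7 ligand Ccl21c was at 0.660 ± 0.670, 0.653 ± 0.447, 0.483 ± 0.490, and 0.302 ± 0.290 TPM, and reads of Ccl21a, Ccl21b, and Ccl21c, which are near-identical copies, could have been divided among them. Ccr6, which follows CCL20 gradients, was at 0.442 ± 0.258, 0.682 ± 0.555, 0.602 ± 0.344, and 0.730 ± 0.359 TPM. Ccr10, a homing receptor of skin T cells and plasma cells, was at 0.498 ± 0.270, 0.590 ± 0.245, 0.737 ± 0.131, and 0.763 ± 0.313 TPM, and Cxcr1 at 0.990 ± 0.421, 0.878 ± 0.431, 0.880 ± 0.623, and 0.815 ± 0.351 TPM.

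**Figure D3:**
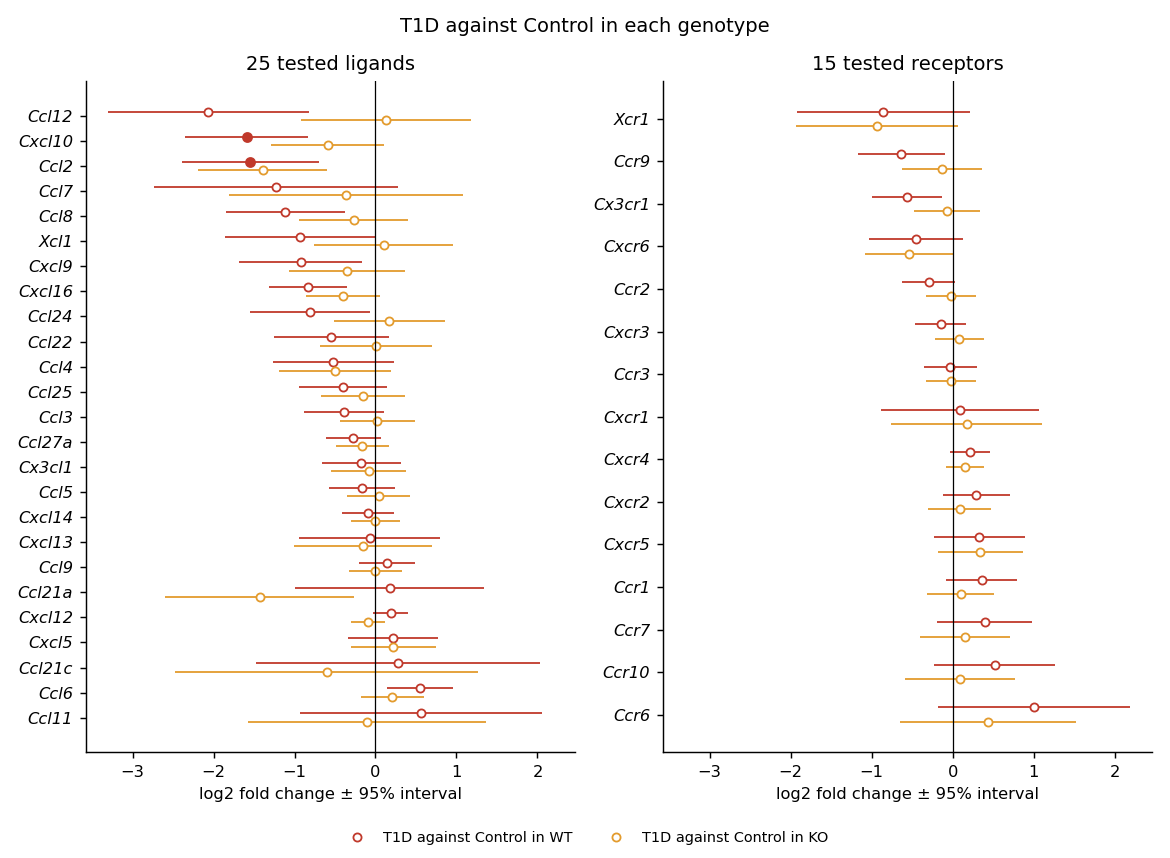
Log2 fold change of T1D against Control with its 95% interval (horizontal axis) for the 25 tested ligands (left) and 15 tested receptors (right), in WT (red) and KO (orange), ordered by the WT value. Filled points have an adjusted p under 0.05, which were Ccl2 and Cxcl10 in WT and 0 members in KO.

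In KO mice, T1D gave 0 member calls by edgeR and 0 by DESeq2, and edgeR called 0.0% of all genes. At an unadjusted p under 0.05 there were 3 members (7.5%), all lower, against 3.15% of all genes. They were Ccl2 and Cxcr6, given above, and Ccl21a, a CCR7 ligand of lymphatic endothelium. Ccl21a was at 1.10, 0.932, 8.70, 2.03, and 3.91 CPM in WT Control, 2.07 to 5.84 CPM (median 3.48) in WT T1D, 2.15 to 8.54 CPM (median 2.68) in KO Control, and 0.437 to 3.07 CPM (median 1.01) in KO T1D. Its difference was -1.43 ± 0.56 in KO (edgeR, unadjusted p = 0.0183) and 0.17 ± 0.57 in WT, where it was 0.02 without A3905 and A3906. The median over the 40 members was -0.02 in KO and -0.002 over all genes.

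Whether the change with T1D differed between genotypes was tested as an interaction. It gave 0 members by edgeR and 0 by DESeq2, as 0.0% of all genes were called, and 1 of 40 members (2.5%) had an unadjusted p under 0.05 against 10.2% of all genes. That member was Ccl12, whose change with T1D was 2.19 ± 0.79 log2 units less negative in KO (edgeR, unadjusted p = 0.0104, adjusted p = 0.479). For Cxcl10 the difference between the changes was 1.00 (95% interval -0.03 to 2.03) and for Ccl2 it was 0.15 (-0.99 to 1.30). A difference in the response of the called members was therefore not detected, and the intervals left room for changes of up to 1.30 log2 units for Ccl2 and 2.03 for Cxcl10. These interaction values include A3905 and A3906. Over all genes, 1467 had an unadjusted p under 0.05 in the interaction, and 669 did without both mice.

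Averaged over genotypes, 1 member passed, Ccl2, which was 2.5% of the 40, and 0.111% of all genes were called. At an unadjusted p under 0.05 there were 13 members (32.5%), 11 lower and 2 higher, against 16.4% of all genes. Next to Ccl2 were Cxcl10 (-1.09 ± 0.25, edgeR, adjusted p = 0.0829) and Cxcl16 (-0.62 ± 0.16, edgeR, adjusted p = 0.11). DESeq2 called these 3, and 1.73% of all genes. The others that were lower at this unadjusted level were Ccl8, Cxcr6, Cxcl9, Xcr1, Ccl12, Cx3cr1, Ccr9, and Ccl4, and Ccl6 and Cxcr4 were higher. These averages include A3905 and A3906. Over all genes, 2354 were under this unadjusted level, and 1538 were without both mice.

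Between genotypes, no member passed the adjusted threshold by edgeR. KO mice had IDs from A3670 to A3683 and A3766, and WT mice had IDs in the A17 and A39 series and A3767. Genotype and ID series therefore largely coincide, and their parts in the differences below cannot be told apart. What the ID series stand for is not given in the sources used here. In Control mice 1 of 40 (2.5%) had an unadjusted p under 0.05, against 4.8% of all genes, and 0.0278% of all genes were called. In T1D there were 10 of 40 (25.0%), 7 higher and 3 lower in KO, against 17.1% of all genes, with 0.0905% called. Without A3905 and A3906 the count in T1D was 7 of 40 (17.5%), 5 of them higher, against 6.47% of all genes. Averaged over T1D and Control there were 7 (17.5%), 6 of them higher, against 9.98% of all genes, with 0.132% called. This average also includes A3905 and A3906, and over all genes 1433 were under the unadjusted level with them and 1133 without. DESeq2 called 0 members in Control, 2 in T1D (Ccl12 and Ccr9), and 1 on average (Ccr9), against 0.0278%, 1.66%, and 0.571% of all genes. The comparison in T1D uses the same WT T1D mice as that of T1D in WT.

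Ccr9, which guides T cells and plasmacytoid dendritic cells to the gut and thymus, was the member nearest to a genotype call. It was at 10.5, 10.4, 8.36, 12.2, and 9.86 CPM in WT Control and 12.3 to 19.5 CPM (median 13.9) in KO Control, so that every KO Control mouse was above every WT Control mouse. How many of all genes separate like this is not given, and the separation is descriptive only. WT T1D mice had 2.43 to 9.46 CPM (median 7.60) and KO T1D mice 9.32 to 18.3 CPM (median 12.5), with 5 of 6 KO T1D mice above all WT T1D mice. The genotype difference was 0.50 ± 0.26 in Control (edgeR, unadjusted p = 0.0608), 1.00 ± 0.25 in T1D (edgeR, adjusted p = 0.0838), and 0.75 ± 0.18 on average (edgeR, adjusted p = 0.0994). Without A3905 and A3906, at 2.43 and 3.18 CPM, these were 0.50, 0.64, and 0.57 (edgeR, adjusted p = 0.0588 on average). The WT difference of Ccr9 with T1D was -0.63 ± 0.26 (edgeR, adjusted p = 0.151) and -0.27 without both mice.

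Of the others with an unadjusted p under 0.05 in T1D, Cxcl9 (18.3 to 58.8 CPM, median 27.6, in KO T1D) and Cxcl10 had KO minus WT differences of 1.00 ± 0.35 and 1.10 ± 0.35 (edgeR, adjusted p = 0.187 and 0.165). KO Control mice had 27.3 to 49.9 CPM of Cxcl9 (median 39.7), a difference of 0.43 ± 0.36 from WT Control. The differences in T1D were 1.14 ± 0.34 for Ccl8, 1.99 ± 0.58 for Ccl12, 0.84 ± 0.34 for Ccl24, and 0.47 ± 0.20 for Cx3cr1 (edgeR, adjusted p from 0.135 to 0.241). Without A3905 and A3906, the T1D differences were 0.58 for Cxcl9, 0.74 for Cxcl10, 1.09 for Ccl8, 1.90 for Ccl12, 0.67 for Ccl24, and 0.17 for Cx3cr1. KO T1D mouse A3682 lay far above the rest of its group for Ccl8 (5.51 CPM, others 1.03 to 2.32) and Cxcl9 (58.8 CPM, others 18.3 to 30.6). Omitting 1 mouse at a time, the T1D difference ranged from 0.697 to 1.285 for Ccl8 and from 0.705 to 1.176 for Cxcl9. Negative differences were found for Cxcl12 (-0.24 ± 0.10), Ccl21a (-1.32 ± 0.56), and Ccl27a (-0.33 ± 0.16), with adjusted p from 0.243 to 0.292 by edgeR. For Cxcl12 all 6 KO T1D mice, at 1297 to 1359 CPM (median 1317), lay below all WT T1D mice, and KO Control mice ranged from 1190.4 to 1813 CPM (median 1283). Without A3905 and A3906 these were -0.10 for Cxcl12, -1.17 for Ccl21a, and -0.40 for Ccl27a.

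Ccl27a, a keratinocyte ligand of CCR10, had negative genotype differences in both states that did not pass the adjusted threshold. WT Control mice had 3.61, 4.22, 4.86, 4.17, and 3.69 CPM and KO Control mice 2.42 to 3.69 CPM (median 2.90), with 5 of 6 below all WT Control mice. WT T1D and KO T1D mice had 2.47 to 4.72 CPM (median 3.22) and 2.27 to 3.02 CPM (median 2.65). The genotype difference was -0.44 ± 0.16 in Control, -0.33 ± 0.16 in T1D, and -0.38 ± 0.11 on average (edgeR, adjusted p = 0.238). Ccl27a overlaps Il11ra1 in the annotation, and how reads on both were divided is not given in the sources used here.

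**Figure D4:**
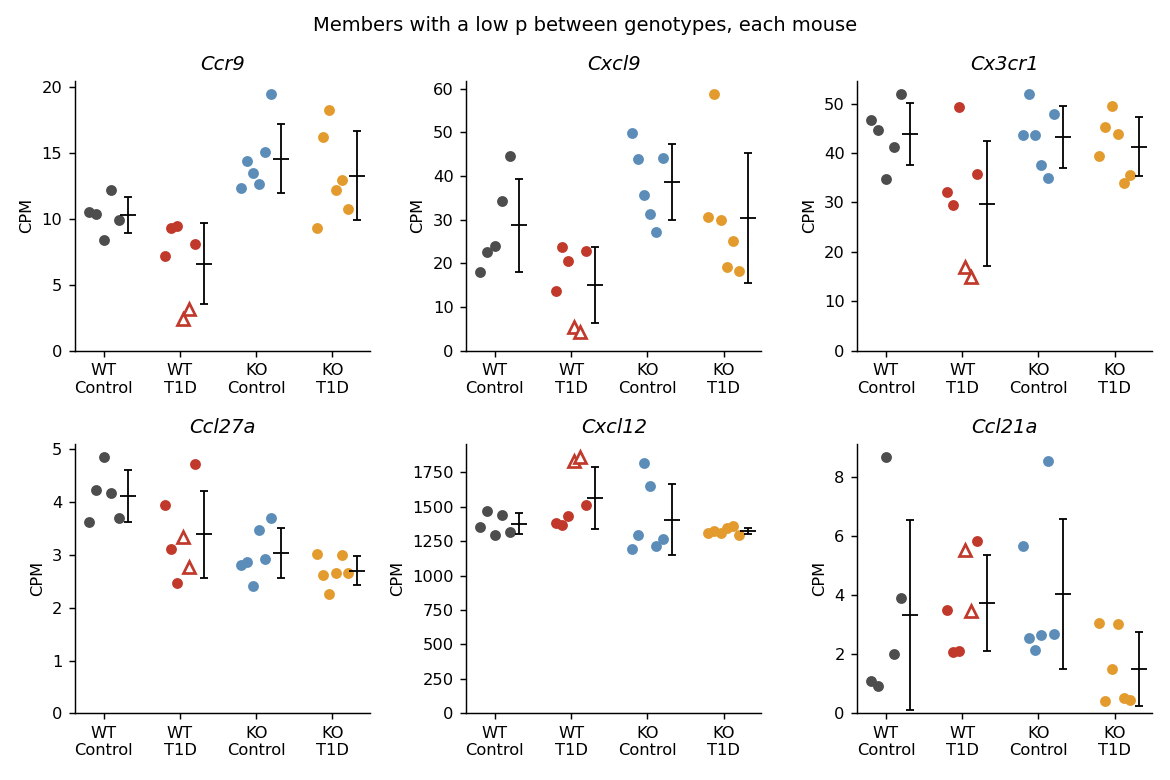
CPM (vertical axis) in each mouse for 6 members with a low unadjusted p between genotypes, by group (horizontal axis). Points are mice, open triangles are WT T1D mice A3905 and A3906, and black bars are mean ± SD. All 6 KO Control mice lie above all WT Control mice for Ccr9, at 12.3 to 19.5 against 8.36 to 12.2 CPM.

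Many CC ligands lie near Sarm1, which is at chr11:78470273-78497816 in GRCm38.p6. Ccl2 is 3.54, Ccl8 3.62, Ccl5 5.03, Ccl6 5.09, Ccl9 5.08, and Ccl3 and Ccl4 5.15 megabases from it, and Cxcl16 is 8.01 megabases away on the same chromosome. Of 328 tested genes within 10 megabases of Sarm1, 4 were called between genotypes in Control (1.22%), and elsewhere 0 of 13979 were. In T1D these counts were 6 (1.83%) and 7 (0.0501%), and on average 9 (2.74%) and 10 (0.0715%). None of the 11 tested members in this window was among the calls, and 2 of 11, Ccl8 and Ccl12, had an unadjusted p under 0.05 in T1D and on average, both higher in KO. In T1D, 71 of the 328 genes in the window and 2367 of the 13979 elsewhere were also under this unadjusted level. On average these numbers were 47 and 1372. With 11 members in the window, 2 are too few to set against these numbers, and a part of the position near Sarm1 was not tested. Ccr9 and Ccl27a lie on chromosomes 9 and 4.

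Other genes of the pathway were drawn from a list of 41 tested genes for atypical receptors, platelet chemokines, G proteins, arrestins, and downstream signaling. With T1D in WT, 2 of 41 were called, both higher, which was 4.88% against 2.33% of all genes. At an unadjusted p under 0.05 there were 6 higher and 5 lower, 26.8% against 22.2% of all genes. The called genes were Ackr1, the Duffy receptor that binds chemokines on erythroid and venular cells without signaling (0.58 ± 0.14), and Ccrl2, a nonsignaling receptor that presents chemerin (0.58 ± 0.14), each with an adjusted p of 0.044 by edgeR. Without A3905 and A3906 these were 0.31 and 0.43 (edgeR, adjusted p = 0.307 and 0.303). Erythroid markers were also higher in WT T1D, as given above, and their part in the Ackr1 value was not tested. Ackr3, the CXCL12 scavenger, had a difference of -0.65 ± 0.22 (edgeR, adjusted p = 0.0948) and of -0.46 without both mice. The platelet chemokines Pf4 and Ppbp, at 153 and 747 CPM on average, had WT differences of 0.04 ± 0.20 and 0.04 ± 0.23, which were 0.335 and 0.35 without both mice (edgeR, adjusted p = 0.367 and 0.443). In KO, none of the 41 had an unadjusted p under 0.05 with T1D, and 0 were called there, in the interaction, on average, or between genotypes.

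Receptor levels were set beside marker lists of the cells that carry them, over the 23 mice, as log2(CPM + 0.5) with group means removed. In this family of 6 pairs, Cxcr2 followed the neutrophil markers most closely, with Pearson r = 0.88 and Spearman rho = 0.87 (permutation test, adjusted p = 6e-05 and 0.00012, the first from the smallest p that the permutations can give). Without the 2 mice farthest in marker level, A3905 and A3906, r was 0.87. Cxcr5 followed the B cell markers (r = 0.70, rho = 0.69, permutation test, adjusted p = 0.0036 and 0.0055), with r = 0.77 without the same mice but 0.31 among the 19 A36 to A39 mice, which leave out the 4 mice with IDs in the A17 series, all of them WT. Ccr3 followed the eosinophil markers (r = 0.66, rho = 0.65, permutation test, adjusted p = 0.0036 and 0.0055), with r = 0.59 without A3673 and A3675 and 0.75 among the A36 to A39 mice. For Ccr2 and the monocyte and macrophage markers the relation did not pass (r = 0.39, rho = 0.30, permutation test, adjusted p = 0.078 and 0.18), with r = 0.31 without A3766 and A3907 and 0.31 among the A36 to A39 mice.

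The ligand Cxcl12 was set beside its known sources. It followed the marrow stromal niche markers (r = 0.62, rho = 0.54, permutation test, adjusted p = 0.0036 and 0.0138), and r was 0.48 without A3670 and A3681 and 0.61 among the A36 to A39 mice. With osteoblast and osteocyte markers it had r = -0.44 and rho = -0.35 (permutation test, adjusted p = 0.0872 and 0.145), and without A3905 and A3906 r was 0.17, so the negative value rests on those mice. The 4 mice of the A17 series are too few for a value of their own. These pairs share libraries and depth, and they describe how the members vary with marker levels.

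**Figure D5:**
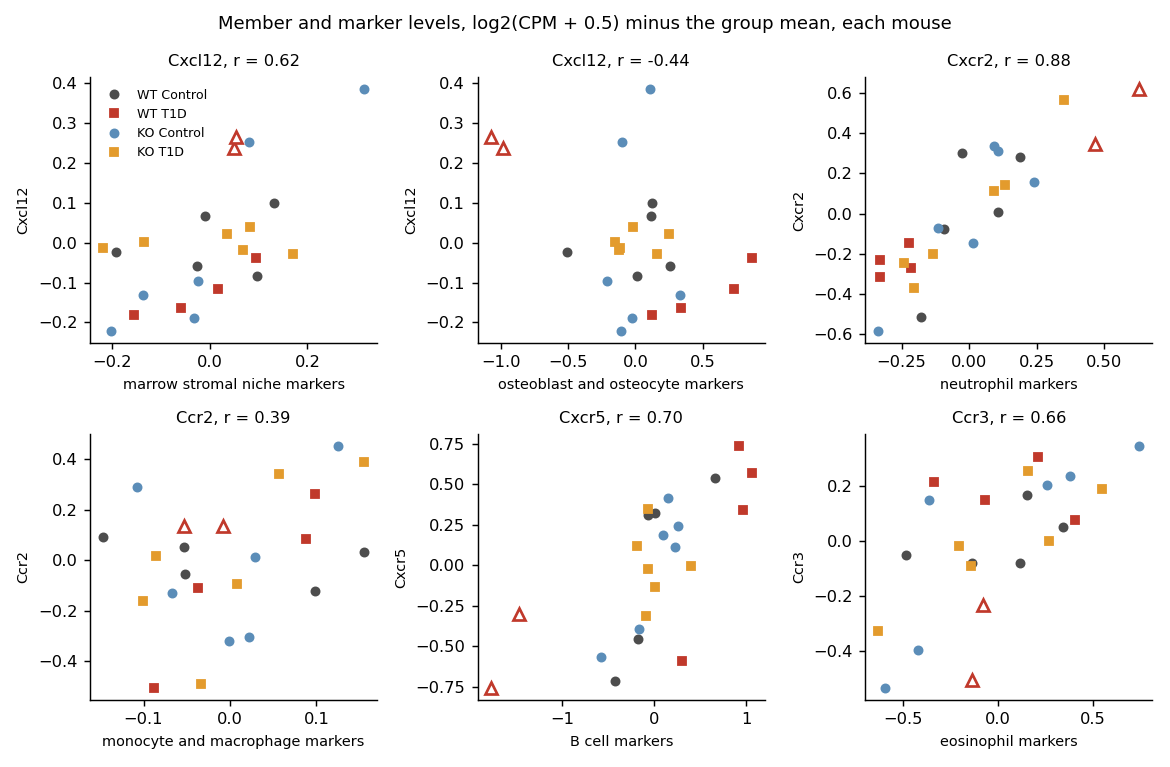
Member level (vertical axis) against the mean of a marker list (horizontal axis), both as log2(CPM + 0.5) minus the group mean, for 6 pairs over 23 mice. Circles are Control, squares are T1D, and open triangles are A3905 and A3906. Cxcr2 rises with the neutrophil markers (r = 0.88), and the 2 triangles lie far to the left for osteoblast and B cell markers.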

How the data were processed

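RNA-Seq libraries of marrow-depleted femur and tibia from 23 mice were analysed. Per the labels, poly(A) RNA was made into strand-marked libraries. Per the study's methods, SOAPnuke cleaned the reads, HISAT and Bowtie2 aligned them against the GRCm38.p6 assembly, and RSEM quantified genes. The authors deposited RSEM expected counts, rounded to whole numbers, and TPM values, which are scaled by transcript length and library size, per gene and mouse. The strand setting of the counting is not given in the sources used here.

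A gene was tested when 5 or more libraries had 10 or more counts. CPM are TMM-scaled, with no pseudocount except 0.5 for correlations. The main test was edgeR 4.0.16 (quasi-likelihood, 1 model of 4 groups, 7 comparisons) in R 4.3.3, with Benjamini-Hochberg adjustment over all 14364 genes and a threshold of 0.05. A 95% interval is the fold change with t-based bounds. Alternatives used DESeq2 1.42.0, limma 3.58.1 on log2 TPM, no count filter, other size factors, and mice left out. The fits were tested on simulated data. Correlations used 100000 permutations. Among the genes matched by symbol, 1 is not reported here and is in no member count. The members and lists were chosen with earlier results of these data known. For chosen members, each WT Control value was given, with the range, the median, or both for the other groups. These were members with an adjusted p under 0.05 in any comparison and the 4 ligands and 4 receptors with the highest mean TPM. Also chosen were members with an unadjusted p under 0.05 and a mean of at least 1 CPM, at most the 6 with the lowest p per comparison. Ccl12 was added after its values were seen, with ranges only. Over the 55 within-group pairs of mice, chi-square per gene was 10.9 to 187, so no library was a duplicate of another in its group. Pairs across groups are not covered by this check. Each library is a separate mouse. Depth, 16938101 to 20135592 counts, limits precision for members with few counts.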

Additional observations from a re-analysis of the deposited data

Results flagged for a closer look

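In 9 of 160 member and group combinations, 1 mouse lay far from the others of its group by Dixon's criterion, and chance gives about 1 in 20. KO Control mouse A3766 had 14.5 CPM of Cxcl10 (others 6.41 to 9.44), 3.09 CPM of Cxcl13 (others 0.229 to 0.924), and 2.20 CPM of Ccl25 (others 0.814 to 1.18). KO T1D mouse A3682 had 58.8 CPM of Cxcl9 (others 18.3 to 30.6) and 5.51 CPM of Ccl8 (others 1.03 to 2.32). Ccl11 was at 2.16 CPM in KO T1D mouse A3674 (others 0 to 0.546), and Ccl5 was at 27.0 CPM in KO Control mouse A3679 (others 15.5 to 19.1). Ccl7 was at 0.860 CPM in WT T1D mouse A1758 (others 0 to 0.231), and Cxcr6 was at 2.48 CPM in WT Control mouse A3907 (others 1.58 to 1.81). The source of these values was not tested.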

How the results depend on the processing

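With T1D in WT, 2 members were called in the main analysis. DESeq2 size factors gave 2 (2.21% of all genes called), no count filter 1 (0.489%), the DESeq2 Wald test 5 (6.98%), limma on log2(TPM + 1) 15 (35.9%) and on log2(TPM + 0.1) 17 (36%), the A36 to A39 mice 9 (15.4%), and omitting A3905 and A3906 0 (0.0%). The A36 to A39 set leaves out A1757 of WT Control and A1758, A1764, and A1787 of WT T1D. Its WT T1D group is A3905, A3906, and A3909, so its counts rest largely on the mice that stood apart. Averaged over genotypes the count of 1 became 3 with the DESeq2 Wald test (1.73%), 6 and 5 with limma (7.7% and 6.62%), 4 among the A36 to A39 mice (3.74%), and 0 without A3905 and A3906. For KO against WT in T1D, 0 became 2 with DESeq2 (1.66%), 6 and 6 with limma (8.12% and 8.25%), and 6 among the A36 to A39 mice (10.7%), and on average 0 became 1 with DESeq2 (0.571%) and 1 among those mice (2.22%). Omitting each mouse in turn gave 0 to 4 calls with T1D in WT, 0 to 3 averaged over genotypes, 0 to 1 for KO against WT in T1D, and 0 to 1 on average. T1D in KO, the interaction, and KO against WT in Control gave 0 members in all alternatives run. On the TPM scales the median of all genes with T1D in WT shifted by -0.24 and -0.29, so member counts there are relative to that shift. There were 1380 alternative values for the 46 member fold changes with an unadjusted p under 0.05. Of these values, 1258 kept direction and side of the threshold, 49 lost and 73 gained a call, and 0 changed direction. Only the 2 calls with T1D in WT and the 1 call averaged over genotypes could be lost. Since the 46 were picked by a low p, a kept direction is a weak check. Outside the 46, Ccr1, Ccr3, Ccl9, and Cx3cl1 changed sign with T1D in WT without A3905 and A3906, all uncalled. The correlation of Cxcl12 with osteoblast and osteocyte markers turned from -0.44 to 0.17 without A3905 and A3906. The causes were not tested. No paired analysis was possible because mouse numbers are not shared between groups. Members with a few counts per mouse, such as Ccl7, Ccl12, and Ccl21c, had too wide intervals to show small differences.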
